A study of Mus musculus with 5 samples.

Results

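Klf5 and the 4 TEAD genes of the mouse, Tead1, Tead2, Tead3 and Tead4, were taken by their symbols from the 32285 genes counted in nuclei of hindlimb muscle, so that 5 genes of 32285 are described. TEAD proteins bind DNA at the end of the Hippo pathway and have little activity of their own until they are joined by a coactivator such as YAP or TAZ (encoded by Yap1 and Wwtr1) or by a vestigial-like protein (Vgll genes). Klf5 is a zinc-finger factor that binds GC-rich and CACCC-type sequences. In muscle, these factors are known as partners of the myogenic bHLH proteins in the differentiation of myoblasts into fibers. Their levels were compared across stages, in a mutant, and between the nuclei of fibers and those of the cells that give rise to them.

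The 10x Genomics multiome method gave transcripts and accessible chromatin of each nucleus together, with 1 library per group. The wild-type groups carried the label WT C57bl6n and came from embryos at E14.5, fetuses at E18.5, pups at P5 and adult mice (E, days of gestation; P, days after birth). The mutant group (KO) came from E18.5 and was Cacna1s-/- C57bl6n, that is, without the pore subunit of the L-type calcium channel through which a nerve impulse makes a fiber contract, so these fetuses are paralyzed and die at birth. Hindlimb muscles were pooled, with 56 hindlimbs for E14.5, 14 for E18.5, 8 for P5, 4 for the adult and 26 for the KO. Nuclei were sorted with and without PCM1, a protein of myonuclei, and both sorts were then mixed, so the share of myonuclei in a library was set by that mixing and is not compared. No agent was given to any group. With 1 library per group there is no spread between replicates and no test was possible. All intervals below are 95% intervals for counting error only.

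The 5 libraries kept 3228 to 5106 nuclei with a median of 2888 to 7821 unique molecular identifiers (UMIs) per nucleus, and pairs of libraries shared 17 to 47 barcodes. Myonuclei were defined as nuclei with at least 1% of their UMIs from Ttn, the gene of the giant sarcomere protein titin, and numbered 1867 in the E14.5, 1579 in the E18.5, 1733 in the P5, 4429 in the adult and 987 in the KO library. Outside that gate, nuclei with a UMI of Pax7, the marker of satellite cells and their fetal precursors, numbered 218, 178, 89, 25 and 378 in the same order, and nuclei with a UMI of Myog, the gene of the differentiation factor myogenin, numbered 87, 114, 17, 0 and 177. Cacna1s, the deleted gene, was at 0.720 counts per 1000000 UMIs (CPM) in KO myonuclei, against 188.6 CPM in E18.5 myonuclei. Other classes left a trace in each gate: 1.67% to 22.8% of myonuclei, 12% to 50.6% of Pax7 positive nuclei and 36.8% to 42.9% of Myog positive nuclei held at least 3 markers of a class outside the muscle lineage. Markers of myonuclei summed to 37515 to 112580 CPM in myonuclei, and to 2984 to 9540 CPM in Pax7 positive nuclei. Mesenchymal markers summed to 886.0 to 3710 CPM in Pax7 positive nuclei, and markers of progenitors to 1611 to 4723 CPM. The mesenchymal sum was the higher one at E18.5 (2250 against 1711 CPM) and P5 (3710 against 2148 CPM).

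On GRCm38, Klf5 (ENSMUSG00000005148) lies at chr14:99298691-99315036 on the plus strand, Tead1 (ENSMUSG00000055320) at chr7:112679318-112906807 on the plus strand, Tead2 (ENSMUSG00000030796) at chr7:45215753-45233644 on the plus strand, Tead3 (ENSMUSG00000002249) at chr17:28331671-28350817 on the minus strand and Tead4 (ENSMUSG00000030353) at chr6:128224288-128300823 on the minus strand. Counts took in introns, and whether they used the strand is not stated. Reads of the first part of Tead1 may therefore include some of 2310014F06Rik, which overlaps it on the opposite strand, and the last bases of Tead2 overlap the end of Cd37. The spliced transcripts of the TEAD genes share identical runs of at most 17 to 59 bases between any pair of genes, the longest between Tead3 and Tead4, so reads from that stretch could be counted to either.

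Promoter sequences were available from RefSeq (build GRCm38.p6) for Tead2 and Tead3, the TEAD genes with the most and the least change in start-site accessibility below. They are shown because both carry GC boxes while only Tead3 carries the TEAD core. Capitals mark the TEAD core (CATTCC or its reverse GGAATG), the GC box (CCGCCC or GGGCGG) and the CACCC box (CACCC or GGGTG). E-boxes (CANNTG), the sites of the myogenic bHLH proteins, were searched as well on both strands. The stretch of Tead2 is chr7:45215542-45215752 on the plus strand and ends at the base before the first annotated start. The stretch of Tead3 is chr17:28350818-28351055 on the minus strand, with its 3′ end at the base before the outermost annotated start. The short stretch is chr17:28350705-28350728 on the minus strand, inside the first transcribed bases of Tead3.
Tead2 upstream: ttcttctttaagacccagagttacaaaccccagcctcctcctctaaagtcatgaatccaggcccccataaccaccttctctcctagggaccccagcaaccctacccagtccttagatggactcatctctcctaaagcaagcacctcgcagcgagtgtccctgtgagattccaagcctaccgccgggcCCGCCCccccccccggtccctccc
Tead3 upstream: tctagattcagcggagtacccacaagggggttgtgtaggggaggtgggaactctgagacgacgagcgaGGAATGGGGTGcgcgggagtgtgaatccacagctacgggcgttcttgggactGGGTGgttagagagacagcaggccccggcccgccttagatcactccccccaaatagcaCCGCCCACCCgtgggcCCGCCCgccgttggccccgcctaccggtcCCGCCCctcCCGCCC
Tead3 paired cores: gggctCATTCCgtaCATTCCggcc

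The Tead2 stretch held 1 GC box, no TEAD core and no CACCC box, and a GC box is in 27.1% of 32544 promoter windows cut to the same 211 bases. The Tead3 stretch held 1 TEAD core, 4 GC boxes and 3 CACCC boxes, of which 1 CACCC box overlaps a GC box. Windows of its 238 bases hold a TEAD core in 12.1%, a GC box in 31.2% and a CACCC box in 50.5% of all promoters. The short Tead3 stretch was cut around a pair of TEAD cores 3 bases apart, so that it holds them was fixed by this choice. The promoter window it was cut from is 300 bases long, and 14.6% of such windows hold at least 1 core. No E-box lies in any of them. All 238 upstream bases of Tead3 and the paired cores were inside the start-site peak of each library, and 184 to 211 of the 211 bases of Tead2 were. A match of letters describes the sequence and is not evidence that a factor sits there.

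The levels of the 5 genes in myonuclei fell into 3 patterns over the wild-type stages: Klf5, Tead2 and Tead4 were high before birth and lowest in the adult, Tead3 took a milder course of the same kind, and Tead1 was highest after birth. In E14.5 myonuclei Klf5 was at 174.9 CPM (1776 UMIs), in E18.5 myonuclei at 164.7 CPM (2087), in P5 myonuclei at 32.1 CPM (392) and in adult myonuclei at 4.15 CPM (82). Tead4, the family member best known from myoblast differentiation, was at 148.9, 206.4, 56.6 and 9.82 CPM at these stages. Tead2, known from early embryos and neural precursors, was at 39.7, 25.6, 5.97 and 0.152 CPM, the last of these from 3 UMIs in 4429 adult myonuclei. Thus each of these genes stood at a lower level at each stage after E18.5, and neither the P5 nor the adult interval reached that of the stage before. Tead3 was at 32.3, 37.6, 20.4 and 11.5 CPM. Tead1, the member known as the main TEAD of adult muscle, was at 486.1, 557.7, 1095 and 864.5 CPM over the same stages, so that its lowest stage was the earliest.

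**Figure D1:**
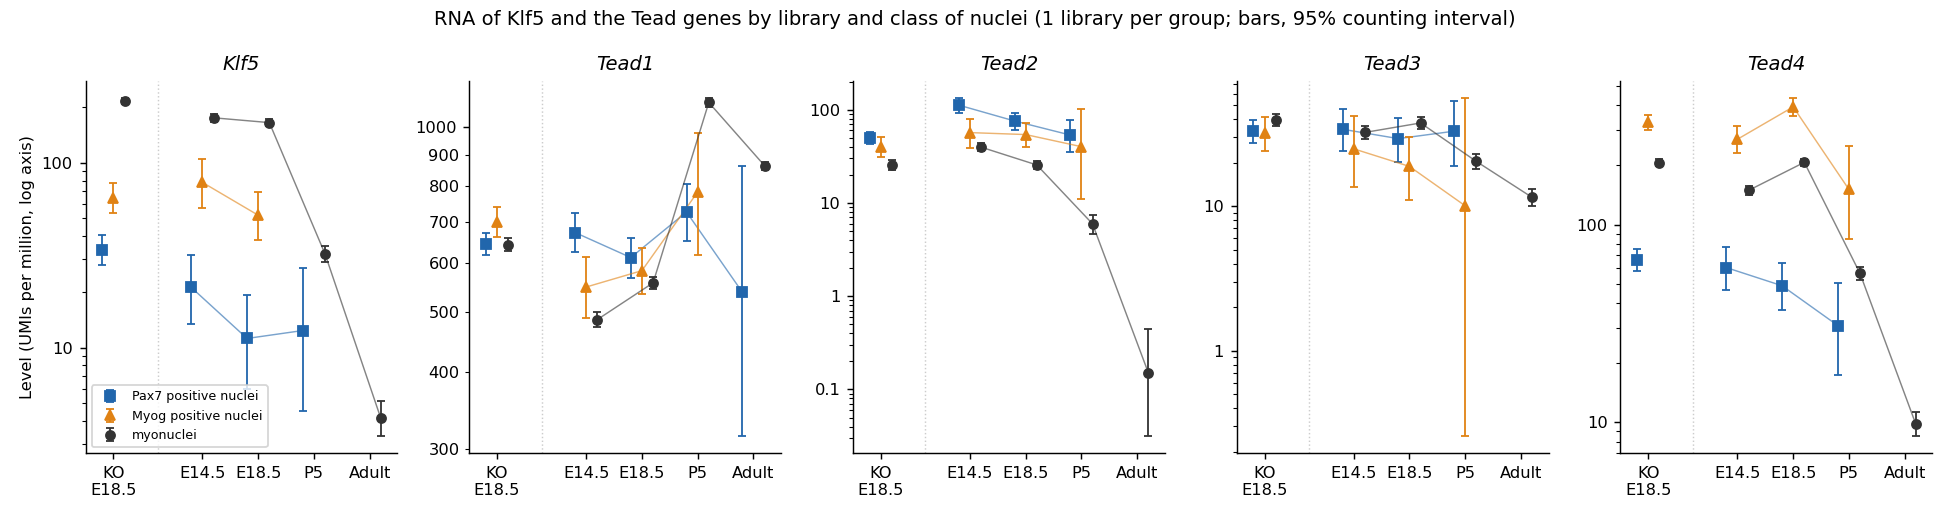
RNA of Klf5 and the Tead genes (y axis, CPM, log axis) in each library (x axis), with KO E18.5 at the left of the dotted line and the wild-type stages in order at its right. Squares are Pax7 positive nuclei, triangles Myog positive nuclei and circles myonuclei, and bars are counting intervals. Classes with 0 UMIs are not drawn. In myonuclei, Klf5 lies at 174.9 CPM at E14.5 and 4.15 CPM in the adult, while Tead1 lies at 486.1 and 864.5 CPM.

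Per kilobase of gene, a rough scale since UMI counts need not follow gene length, Klf5 led in fetal myonuclei and Tead1 in adult myonuclei. The order between genes depends on this scale. In CPM, Tead1 led at E18.5 with 557.7, against 206.4 for Tead4 and 164.7 for Klf5. At E18.5 the levels were 10.1 CPM per kb for Klf5, 2.70 for Tead4, 2.45 for Tead1, 1.96 for Tead3 and 1.43 for Tead2. In the adult they were 3.80 CPM per kb for Tead1, 0.60 for Tead3, 0.254 for Klf5, 0.128 for Tead4 and 0.00849 for Tead2. At P5 they were 4.81 CPM per kb for Tead1, 1.96 for Klf5, 1.06 for Tead3, 0.739 for Tead4 and 0.334 for Tead2. Counting intervals of neighbours in these 3 orders did not overlap, but they do not cover the choice of scale. At E14.5 the levels were 10.7 CPM per kb for Klf5, 2.22 for Tead2, 2.14 for Tead1, 1.95 for Tead4 and 1.69 for Tead3, where the interval of Tead2 overlaps those of Tead1 and Tead4. On this scale alone, Tead4 stood ahead of the other TEAD genes at E18.5 and behind Tead3 at P5. On both scales it stood behind Tead1 at P5, and behind Tead1 and Tead3 in the adult.

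From E14.5 to E18.5 none of the 5 genes passed a 2-fold difference in myonuclei, where 17.3% of all measured genes were at least 2-fold higher and 9.94% at least 2-fold lower, and where the median gene moved by 0.17 (log2 CPM). Tead4 was 1.39-fold higher at E18.5 (1.30 to 1.48) and Tead2 was 1.55-fold lower (1.34 to 1.80). Klf5 had a ratio of 0.942 (0.884 to 1.00), an interval that reaches 1, and is the one gene of the 5 whose E14.5 and E18.5 levels were not separated by counting error.

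Across birth, 3 of the 5 genes were at least 2-fold lower at P5 than at E18.5, beside 21.4% of all measured genes, and none was at least 2-fold higher, beside 7.68%. Klf5 was 5.14-fold lower (4.61 to 5.74), Tead2 4.28-fold lower (3.31 to 5.60) and Tead4 3.65-fold lower (3.35 to 3.97). Tead3 was 1.84-fold lower (1.58 to 2.16), whereas Tead1 was 1.96-fold higher (1.91 to 2.02). The median gene itself moved by -0.37 on the log2 CPM scale. Scaled to the bulk of genes with TMM factors, the log2 differences were 1.33 for Tead1, which then passed 2-fold, and -2.01, -1.74 and -1.51 for Klf5, Tead2 and Tead4.

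In the adult, the same 3 genes were again at least 2-fold lower than at P5, where 33.8% of all measured genes were lower and 8.31% higher by that much, and where the median gene moved by -0.40 (log2 CPM). Tead2 was 39.3-fold lower (12.9 to 195), Klf5 7.72-fold lower (6.07 to 9.92) and Tead4 5.76-fold lower (4.91 to 6.79). Against E18.5, 4 of the 5 were at least 2-fold lower in the adult, beside 46.8% of all measured genes, and none at least 2-fold higher, beside 10.2%. There, Tead2 was 168-fold lower (57.1 to 821), Klf5 39.7-fold lower (31.8 to 50.1), Tead4 21.0-fold lower (18.2 to 24.4) and Tead3 3.27-fold lower (2.79 to 3.85), while Tead1 was 1.55-fold higher (1.51 to 1.59). The median gene moved by -0.88 (log2 CPM) between these libraries. With TMM factors, Tead3 was at -0.86 and no longer past 2-fold, Tead1 at 1.49 was past it, and Klf5, Tead2 and Tead4 remained far below at -4.46, -6.54 and -3.54. Between P5 and adult, the difference of Tead1 changed sign with this scaling, -0.34 on the CPM scale and 0.16 with TMM factors, and is therefore read in neither direction. Mesenchymal markers summed to 1222 CPM in E18.5, 1202 in P5 and 36.8 in adult myonuclei. Tead2 was at 53.5 CPM in E18.5 and 19.2 in P5 mesenchymal-marker nuclei, above its levels in myonuclei. The part of this trace of other classes in the adult ratios was not tested.

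**Figure D2:**
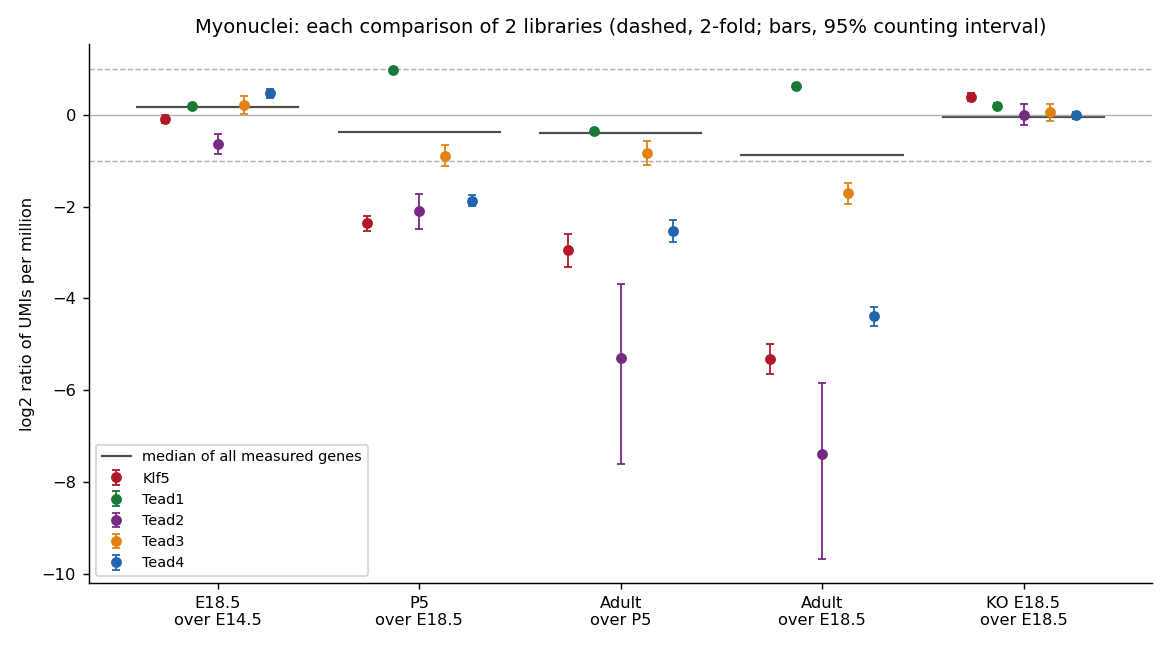
Log2 ratio of CPM in myonuclei (y axis) for each comparison of 2 libraries (x axis), with 1 point per gene, counting intervals as bars, dashed lines at 2-fold and a dark line at the median of all measured genes. Klf5, Tead2 and Tead4 lie below the lower dashed line in the 3 comparisons after birth, and all 5 genes lie within 2-fold in the KO.

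The share of myonuclei with a UMI gave the same order of stages for Klf5, Tead1, Tead2 and Tead4. After each nucleus was thinned to 1000 UMIs, Klf5 was seen in 15.1%, 12.6%, 2.17% and 0.328% of myonuclei over the stages from E14.5 to the adult, and in 44.7%, 39.7%, 11.1% and 1.49% without thinning. Tead4 was seen in 15.1%, 17.2%, 6.04% and 0.580%, and Tead1 in 36.9%, 39.6%, 62.2% and 52.9%. Tead3 was seen in 3.39%, 3.05%, 2.05% and 1.21%, where the intervals of E14.5 and E18.5 overlap. Tead2 was seen in 4.26%, 2.67%, 0.362% and, at this depth, 0 of 3965 adult myonuclei, for which 3 counts would give 0.0757%. Without thinning 3 adult myonuclei held it (0.0677%, 0.0140 to 0.198). As a measure of free RNA, Klf5 was seen in 1 of 113 endothelial-marker nuclei at E14.5 (0.885%) and, at this depth, in none of the endothelial-marker nuclei of the other libraries and in no macrophage-marker nucleus. Without thinning it was seen in 1.10% to 5.22% of endothelial-marker and 1.90% to 4.17% of macrophage-marker nuclei outside the adult. The adult library left 4 endothelial-marker nuclei after thinning, too few to measure free RNA there, so whether the adult share of Klf5 exceeds it was not measurable.

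Pax7 positive nuclei showed another balance of the 5 genes than myonuclei did. Low Klf5 with higher Tead2 was not particular to them. Mesenchymal-marker nuclei of E14.5 and E18.5 had Klf5 at 14.4 and 15.8 CPM and Tead2 at 91.1 and 53.5 CPM. Klf5 was lower in Pax7 positive nuclei than in myonuclei of the same library, 8.28-fold for E14.5 (5.50 to 13.1), 14.7-fold for E18.5 (8.59 to 27.7), 2.59-fold for P5 (1.18 to 7.11) and 6.35-fold for the KO (5.28 to 7.72). Its levels in Pax7 positive nuclei were 21.1, 11.2, 12.4 and 33.9 CPM in that order, from 23, 13, 6 and 117 UMIs. The thinned shares in these nuclei were 0% to 1.12%, beside 0.885% of endothelial-marker nuclei at E14.5 and none of those at E18.5, at P5 and in the KO. Whether they exceed free RNA was not tested. Tead4 was likewise lower in Pax7 positive nuclei, at 60.6, 49.1, 30.9 and 66.3 CPM, which is 2.46-fold, 4.21-fold, 1.83-fold and 3.10-fold below myonuclei of the same libraries.

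Tead2 ran the other way. In Pax7 positive nuclei of E14.5, E18.5, P5 and the KO it was at 112.0, 75.8, 53.5 and 49.8 CPM, which is 2.82-fold (2.29 to 3.47), 2.96-fold (2.31 to 3.76), 8.97-fold (5.50 to 14.2) and 1.93-fold (1.59 to 2.34) above myonuclei. Tead1 was at 673.0, 613.0, 726.8 and 645.0 CPM and Tead3 at 34.0, 29.3, 32.9 and 33.0 CPM, both within 2-fold of myonuclei in each of these libraries. The 25 adult Pax7 positive nuclei held 31551 UMIs in all. Tead1 had 17 of them (538.8 CPM), and the other 4 genes had 0, where 3 UMIs would give 95.1 CPM. The adult levels of these 4 in satellite cells were thus not measurable at this depth.

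Between stages, none of the measured members differed 2-fold in Pax7 positive nuclei. These were all 5 at E18.5 over E14.5, 4 without Klf5 at P5 over E18.5, and Tead1 alone in the adult. The share of all measured genes that did was 8.38% higher and 6.57% lower from E14.5 to E18.5, 3.92% and 9.23% at P5 over E18.5, 10.7% and 20.5% in the adult over P5, and 15.2% and 17.8% in the adult over E18.5.  Tead2 was the member with the clearest step, 1.48-fold lower at E18.5 than at E14.5 (1.11 to 1.97).

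In Myog positive nuclei, the step between precursor and fiber, Tead4 had its highest level of any class. In Myog positive nuclei of E14.5, E18.5, P5 and the KO it was at 270.1, 393.5, 150.6 and 328.2 CPM, which is 1.81-fold (1.53 to 2.14), 1.91-fold (1.70 to 2.13), 2.66-fold (1.48 to 4.42) and 1.6-fold (1.46 to 1.75) above myonuclei. Against Pax7 positive nuclei, Tead4 was higher in each library, 4.46-fold for E14.5 (3.32 to 6.04), 8.02-fold for E18.5 (6.05 to 10.8), 4.88-fold for P5 (2.22 to 10.7) and 4.95-fold for the KO (4.24 to 5.80). Klf5 lay between both classes at 78.2 CPM for E14.5, 52.0 for E18.5 and 64.6 for the KO, 2.24-fold (1.66 to 3.09), 3.17-fold (2.37 to 4.33) and 3.33-fold (2.76 to 4.06) below myonuclei. In 3 libraries, therefore, Tead4 was higher and Klf5 lower in Myog positive nuclei than in the fibers. At P5 Klf5 had 0 of 99588 UMIs in 17 Myog positive nuclei, where 3 UMIs would give 30.1 CPM.

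Over the same 4 libraries Tead2 was at 56.9, 54.2, 40.2 and 40.0 CPM in Myog positive nuclei, which is 1.43-fold (0.967 to 2.06), 2.12-fold (1.54 to 2.87), 6.73-fold (1.79 to 18, from 4 UMIs) and 1.55-fold (1.18 to 2.02) above myonuclei. Tead3 was at 24.9, 18.8, 10.0 and 32.0 CPM. Tead1 was at 549.0, 583.7, 783.2 and 700.3 CPM. In these nuclei 0 of the 4 members measured (without Tead3) passed 2-fold at E18.5 over E14.5, beside 11.6% higher and 5.06% lower of all measured genes. At P5 over E18.5 only Tead4 did, 2.61-fold lower (1.56 to 4.72) from 15 UMIs in 17 nuclei, beside 7.34% higher and 16.4% lower. Klf5, at 0 UMIs, was 1.72-fold lower when 0 is set to 3 UMIs, and its interval starts at 1.35-fold.

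Within fibers, myonuclei with and without a UMI of Myog were then compared. At E18.5 Klf5 was at 273.6 CPM in 402 Myog positive myonuclei, against 118.1 CPM in 1177 Myog negative ones, 2.32-fold higher (2.12 to 2.53). Tead4 was at 337.3 against 150.3 CPM, 2.24-fold higher (2.08 to 2.42). Tead2 was 1.65-fold higher (1.31 to 2.07) and Tead3 1.47-fold higher (1.22 to 1.78), whereas Tead1 was 1.26-fold lower in Myog positive myonuclei. At this stage the genes that were lower after birth were thus also those that were higher beside Myog.

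In the KO each gene differed in the same direction, with Klf5 at 295.7 against 161.7 CPM, 1.83-fold higher (1.69 to 1.98) in Myog positive myonuclei. Tead2 was 1.69-fold higher there (1.33 to 2.15) and Tead4 1.58-fold higher (1.45 to 1.71). Whether the KO differs from E18.5 in this was not tested. At E14.5 the ratio was 0.929 for Klf5 (0.823 to 1.05) and 1.32 for Tead4 (1.17 to 1.48), and at P5 0.769 for Klf5 (0.496 to 1.15) and 1.26 for Tead4 (0.971 to 1.61). Klf5 was therefore higher beside Myog in both E18.5 libraries and not separated at E14.5 or P5. Depth moved with the gate, at a median of 8418.5 UMIs in Myog positive and 6630 in Myog negative myonuclei of E18.5. In nuclei of at least 5000 UMIs the ratios were 2.29 for Klf5 and 2.24 for Tead4 at E18.5, and 1.78 and 1.59 in the KO.

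**Figure D3:**
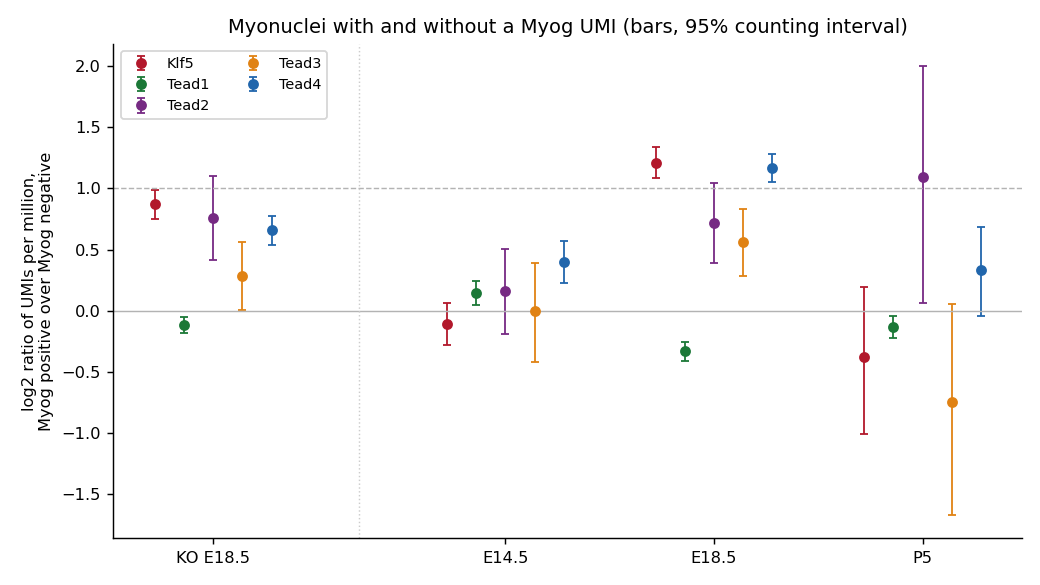
Log2 ratio of CPM in myonuclei with a Myog UMI over those without (y axis), by library (x axis, KO at the left of the dotted line) and gene, with counting intervals as bars and a dashed line at 2-fold. Klf5 and Tead4 lie above the dashed line at E18.5, at ratios of 2.32 and 2.24.

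Mymk, the fusion gene myomaker, split the fibers in a like way at E18.5, where Klf5 was 1.84-fold (1.69 to 2.01) and Tead4 1.98-fold (1.83 to 2.14) higher in Mymk positive myonuclei. At P5, only 39 myonuclei held a Mymk UMI, and in these Klf5 was at 92.9 CPM, against 29.9 CPM in Mymk negative ones, 3.11-fold higher (2.17 to 4.33). Tead3 was 2.59-fold (1.57 to 4.06) and Tead4 2.10-fold (1.53 to 2.81) higher there, and so was Tnnt2, the embryonic troponin T gene, at 6.47-fold (3.77 to 10.6). In the KO the Mymk ratio was 1.00 for Klf5 (0.923 to 1.09) and at E14.5 it was 1.03 (0.928 to 1.14). Thus the few P5 myonuclei with a Mymk UMI had Klf5, Tead3 and Tead4 at higher levels than the other P5 myonuclei, while Tead2 had 2 UMIs in them and could not be compared.

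In myonuclei of the KO all 5 genes were within 2-fold of E18.5, beside 6.2% of all measured genes at least 2-fold higher and 5.52% at least 2-fold lower. Klf5 was at 215.1 CPM in KO myonuclei, against 164.7 CPM in E18.5 myonuclei, 1.31-fold higher (1.23 to 1.39). Tead1 was at 643.4 against 557.7 CPM, 1.15-fold higher (1.12 to 1.19). Tead4 was at 205.4 CPM in the KO, against 206.4 CPM at E18.5, a ratio of 0.995 (0.940 to 1.05), and Tead2 and Tead3 had ratios of 1.01 (0.856 to 1.18) and 1.04 (0.913 to 1.19). Tead2, Tead3 and Tead4 were thus not separated between these libraries by counting error, and the spread between litters is unknown.

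In Pax7 positive nuclei, Klf5 was at 33.9 CPM in the KO, against 11.2 CPM at E18.5, 3.02-fold higher (1.70 to 5.85) from 117 and 13 UMIs, and was the 1 gene of 5 past 2-fold, beside 8.81% higher and 2.99% lower of all measured genes. Klf5 was seen in 16.1% of these KO nuclei (12.6 to 20.2), against 5.62% at E18.5 (2.73 to 10.1). After thinning to 1000 UMIs it was seen in 2 of 378 KO nuclei, against 0 of 177 at E18.5, and in no endothelial-marker nucleus of either library. These thinned counts are too low to separate the libraries, and whether they exceed free RNA was not tested. On the log2 scale the difference was 1.6 in this gate, 0.97 without nuclei that held markers of another class, and -0.23 when myonuclei were kept in it. Adipocyte markers summed to 261.9 CPM in these KO nuclei, against 43.9 CPM at E18.5, and macrophage markers to 310.2 against 23.2 CPM. Their part in the result was not tested. Tead2 was 1.52-fold lower in the KO (1.16 to 1.98). In Myog positive nuclei 0 of 5 genes passed 2-fold, beside 7.33% higher and 3.85% lower of all measured genes, with Tead4 at 328.2 CPM in the KO, against 393.5 CPM at E18.5.

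Outside the muscle lineage Klf5 also differed in the KO. In nuclei with at least 3 mesenchymal markers it was at 50.2 CPM in 1098 KO nuclei, against 15.8 CPM in 1865 nuclei of E18.5, 3.19-fold higher (2.68 to 3.80), where 6.62% of all measured genes were at least 2-fold higher and 5.87% lower. These nuclei were looked at after the values of Klf5 in the other classes were seen. The wild-type libraries stood close together, at 14.4, 15.8, 20.8 and 17.3 CPM over the stages from E14.5 to the adult. With nuclei of at least 5000 UMIs the KO difference was 3.10-fold, with nuclei free of any Ttn UMI 3.27-fold, and with at least 5 markers 3.64-fold. After thinning to 1000 UMIs, 4.20% of KO nuclei (3.09 to 5.56) held Klf5, against 1.68% at E18.5 (1.14 to 2.37).

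Other markers also differed in this class. Adipocyte markers summed to 192.3 CPM in KO nuclei, against 29.9 CPM at E18.5, Schwann and glia markers to 90.8 against 34.4 CPM, tenocyte markers to 213.0 against 362.3 CPM, mesenchymal markers to 4646 against 7121 CPM, and markers of myonuclei to 1467 against 1132 CPM. Their part in the Klf5 difference was not tested. Klf5 was at 6.60 CPM in the KO nuclei of the adipocyte-marker class, which shares no nucleus with the mesenchymal-marker class. Its bearing on the Klf5 difference was not tested. Tead4 stood at 16.5 CPM in KO mesenchymal-marker nuclei, against 12.7 CPM at E18.5, and Tead2 at 38.7 against 53.5 CPM.

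**Figure D4:**
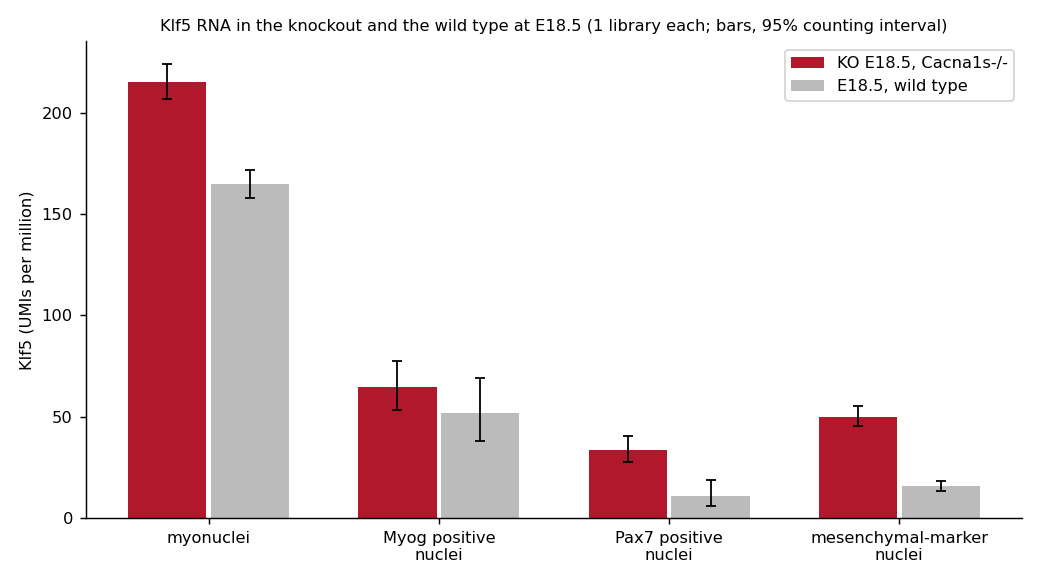
Klf5 level (y axis, CPM) in KO E18.5 (red) and wild-type E18.5 (grey) by class of nuclei (x axis), with counting intervals as bars and 1 library per bar. The bars stand at 215.1 and 164.7 CPM in myonuclei and at 50.2 and 15.8 CPM in mesenchymal-marker nuclei.

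Among the other classes, Tead1 was highest in nuclei with Schwann and glia markers, at 1042 to 1551 CPM over 4 libraries, and lowest in macrophage-marker nuclei, at 42.2 to 157.1 CPM outside the adult. Endothelial-marker nuclei of the same 4 libraries had Tead4 at 60.3 to 91.7 CPM and Tead2 at 52.5 to 84.4 CPM, with Klf5 at 1.81 to 14.2 CPM. Tead4 was thus not limited to the muscle lineage in these libraries, although its highest levels were in Myog positive nuclei.

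Adult fibers of different types differed in Tead1 and, from far fewer UMIs, in other members. Myonuclei were put to a type by the myosin heavy chain gene that held most of their myosin UMIs, which gave 2957 nuclei of type IIb (Myh4, the fastest type), 434 of IIx (Myh1), 181 of IIa (Myh2) and 20 of type I (Myh7, the slow type). Tead1 was at 753.7 CPM in IIb nuclei, 1181 in IIx, 1534 in IIa and 1615 in type I, which is 1.57-fold (1.5 to 1.63), 2.04-fold (1.92 to 2.15) and 2.14-fold (1.80 to 2.53) above IIb. The intervals of IIa and type I overlap, so their order is not set. Tead4 was at 8.41 CPM in IIb, 14.1 in IIx and 17.9 in IIa, 1.67-fold (1.10 to 2.47) and 2.12-fold (1.18 to 3.59) above IIb. Klf5 was at 4.68 CPM in IIb nuclei, against 1.28 CPM (3 UMIs) in IIx, and at 0 UMIs in IIa nuclei, where the IIb level would give 4.19 UMIs. Tead3 was at 10.7 CPM in IIb, 11.9 in IIx and 19.0 in IIa, 1.11-fold (0.717 to 1.67) and 1.77-fold (1.01 to 2.93) above IIb. Tead2, with 3 UMIs in all adult myonuclei, could not be compared. Levels were not scaled to the bulk of genes between the types, so a shift shared by many genes was not tested. All these nuclei came from the same library and are not replicates.

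At the chromatin level, a peak lay within 1000 bases of a start site of all 5 genes in each of the 5 libraries, where 51.3% to 55.7% of all genes had one. Klf5 had an even start-site signal at stages between which its RNA differed 39.7-fold: in myonuclei its peak held 44.8, 48.2, 51.0 and 45.9 ATAC CPM (counts per 1000000 counts in peaks) over the stages from E14.5 to the adult. Tead3 was as even, at 42.8, 42.0, 38.6 and 39.9 ATAC CPM. Tead2 had less signal at each later stage, at 37.7, 20.8, 12.9 and 3.57 ATAC CPM over 1348, 1210, 1190 and 866 bases of peaks. Tead1 was at 66.9, 70.6, 70.0 and 31.2 ATAC CPM, and was thus lowest in the adult, where its RNA was above the E18.5 level. No peak lay at its last annotated start in any library, and starts between the first and the last were not searched.

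From E14.5 to E18.5 and from E18.5 to P5, none of the 5 genes differed 2-fold in start-site signal, beside 2.11% higher and 2.73% lower, and 1.91% and 2.25%, of genes with such peaks. In the adult, Tead1 was 2.24-fold lower than at P5 (2.05 to 2.45) and Tead2 3.62-fold lower (2.85 to 4.59), so 2 of 5 were at least 2-fold lower, beside 12.1% of genes, and 0 higher, beside 1.47%, where the median of all genes was -0.14 (log2). Against E18.5 the same 2 were 2.26-fold (2.08 to 2.46) and 5.83-fold (4.75 to 7.17) lower, beside 15.1% lower and 2.85% higher. The adult library had 1 peak at Tead2 where the others had 2, and over the peak at the first start alone Tead2 was at 3.57 ATAC CPM in the adult, against 9.16 at E18.5, 2.56-fold lower (2.01 to 3.27). In the KO none passed 2-fold, beside 0.92% higher and 3.25% lower, with Tead1 at 95.4 against 70.6, Tead4 at 98.0 against 77.2, Tead2 at 29.6 against 20.8, Klf5 at 53.3 against 48.2 and Tead3 at 47.5 against 42.0 ATAC CPM. The intervals of Klf5 (0.962 to 1.26) and Tead3 (0.978 to 1.31) reach 1, and those of the other 3 do not.

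The first and last annotated starts of Tead4 lie 25236 bases apart, and their balance differed between stages. In myonuclei the outer start was at 49.6 ATAC CPM in the E14.5, 38.2 in the E18.5 and 36.5 in the P5 library, and the inner start at 26.8, 39.0 and 35.8. In the adult the inner start held 35.3 of the 49.8 ATAC CPM of both starts. The inner start thus held 35.1% of the Tead4 start-site counts at E14.5 (31.8 to 38.4), 50.5% at E18.5 (47.6 to 53.5), 49.5% at P5 (46.1 to 52.9), 70.9% in the adult (68.8 to 72.9) and 48.1% in the KO (43.9 to 52.4). In Pax7 positive nuclei it held 23.3% at E14.5 (13.4 to 36.0), 13.6% at E18.5 (6.04 to 25), 44.4% at P5 (13.7 to 78.8, from 9 counts) and 43.9% in the KO (30.7 to 57.6), so the KO interval lies above that of E18.5. In Myog positive nuclei it held 17.4% at E14.5 (7.82 to 31.4), 59.3% at E18.5 (48.5 to 69.5) and 54.4% in the KO (41.9 to 66.5). The signal that remained in adult fibers, where Tead4 RNA was at 9.82 CPM, was thus mostly at the inner start.

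**Figure D5:**
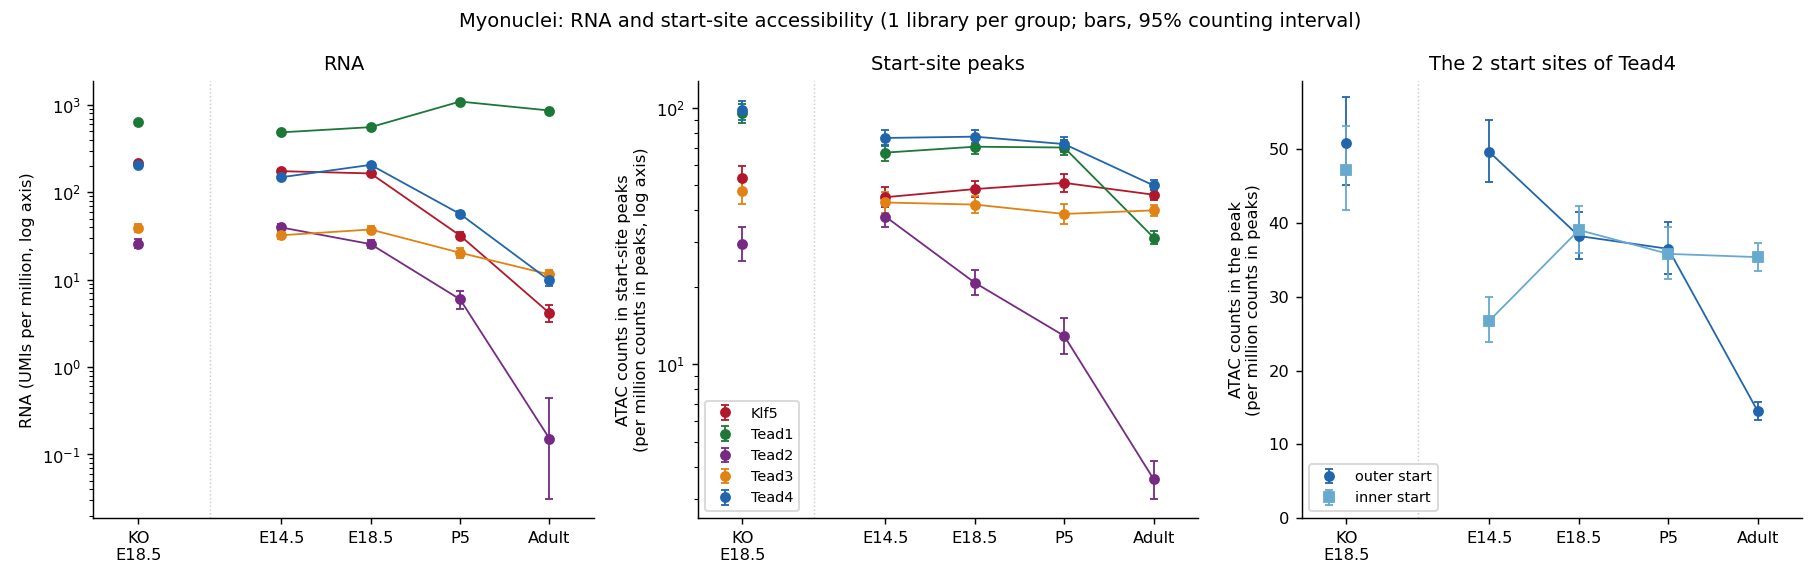
Myonuclei of each library (x axis, KO at the left of the dotted line): RNA (left, CPM, log axis), start-site peaks (middle, ATAC CPM, log axis) and the outer and inner start sites of Tead4 (right), with counting intervals as bars. Klf5 RNA lies at 4.15 CPM in the adult while its start-site peak lies at 45.9 ATAC CPM. The inner start of Tead4 lies at 35.3 ATAC CPM in the adult, above the outer one.

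The partners of the TEAD proteins were read from a list of 6 coactivators and cofactors, of which 5 were measured in myonuclei and Vgll1 had 0 UMIs. Yap1 was at 145.0, 127.4, 168.3 and 112.6 CPM from E14.5 to the adult, and Wwtr1 at 455.4, 391.3, 190.8 and 70.3 CPM. Vgll3, which binds TEADs in myoblasts, was at 140.3, 127.0, 27.7 and 6.17 CPM and Vgll2, the skeletal muscle member, at 37.6, 26.3, 13.3 and 9.67 CPM. Vgll4, a TEAD repressor, was at 253.0, 267.9, 151.3 and 146.7 CPM. In the adult over E18.5, 3 of the 5 were at least 2-fold lower and none higher, beside 46.8% lower and 10.2% higher of all measured genes, Vgll3 20.6-fold (17.1 to 24.9), Wwtr1 5.56-fold (5.24 to 5.91) and Vgll2 2.72-fold (2.27 to 3.26), of which Vgll2 was within 2-fold with TMM factors. The median of the list was -1.44 on the log2 CPM scale, beside -0.88 for all genes. In the KO, all 5 were within 2-fold, with Yap1 at 192.0 CPM, against 127.4 CPM at E18.5, and Vgll3 at 180.5 against 127.0 CPM.

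Of 20 Hippo kinases and upstream regulators, all measured, 8 were at least 2-fold lower and 1 higher in the adult over E18.5, beside 46.8% lower and 10.2% higher of all measured genes, with a median of -0.74, beside -0.88 for all genes. Dchs1 and Wwc1, a cadherin and a scaffold upstream of the kinases, were 83.8-fold (32.3 to 310) and 30.3-fold (16.6 to 61.7) lower, and Ptpn14, a phosphatase that binds YAP, was 2.52-fold higher (2.31 to 2.76). Amot, an angiomotin that keeps YAP out of the nucleus, was 4.10-fold higher at E18.5 than at E14.5 and 5.05-fold higher at P5 than at E18.5. At P5 over E18.5, 1 gene of the list was higher and 3 lower, beside 7.68% and 21.4% of all measured genes. The counts were 0 and 8 in the adult over P5, beside 8.31% and 33.8%, and 0 and 1 in the KO, beside 6.2% and 5.52%. At E18.5 over E14.5 they were 2 and 0, beside 17.3% and 9.94%. The median of the list in the adult thus lay near that of all genes.

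Genes of a YAP and TEAD target signature, 22 in all, were lower mainly in the adult. Of 20 measured, 15 were at least 2-fold lower and 1 higher in the adult over P5 (12 and 1 with TMM factors), beside 33.8% lower and 8.31% higher of all measured genes, with a median of -1.71, beside -0.40 for all genes. Against E18.5, 14 were lower and 2 higher (9 and 2 with TMM factors), beside 46.8% lower and 10.2% higher. The median was -1.27, beside -0.88 for all genes, and with TMM factors -0.42, beside -0.02. Igfbp3, which binds insulin-like growth factors, was 544-fold lower (97.0 to 21554, from 1 UMI) and Ankrd1, a stretch-responsive cofactor, 47.8-fold lower (30.0 to 81.3). Crim1, a membrane protein that binds growth factors, was 14.9-fold higher (13.6 to 16.3). At P5 over E18.5, the step at which Klf5, Tead2 and Tead4 were first at least 2-fold lower, 2 of 20 were lower and none higher (1 and 3 with TMM factors). This stood beside 21.4% lower and 7.68% higher of all measured genes, and the median was 0.01, beside -0.37 for all genes. In the KO 4 were lower and 1 higher, beside 5.52% and 6.2%. There, Ankrd1 was at 12.2 CPM in the KO, against 43.6 CPM at E18.5, 3.56-fold lower (2.94 to 4.32), and Dock5 was 2.58-fold higher (1.81 to 3.73). At E18.5 over E14.5, 5 of 21 were higher and 3 lower, beside 17.3% and 9.94% of all measured genes. The receptor kinase Axl was 4.12-fold higher (3.05 to 5.65), the ectonucleotidase Nt5e 3.67-fold higher (2.75 to 4.98), Fjx1 6.33-fold lower (3.54 to 12.2) and Myof, a membrane repair protein, 4.35-fold lower (3.97 to 4.76). Mesenchymal markers in myonuclei summed to 397.8, 1222, 1202 and 36.8 CPM from E14.5 to the adult. The part of this trace in the course of the signature was not tested.

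Other Klf genes took several courses. Of 16, 12 were measured, and 7 were at least 2-fold higher and none lower at E18.5 over E14.5, beside 17.3% higher and 9.94% lower of all measured genes. Klf9 was higher by 11.1-fold (6.87 to 19.0) and Klf15 by 5.15-fold (2.92 to 9.80), where Klf5 had a ratio of 0.942. In the adult over E18.5, 2 were higher and 6 lower (6 and 4 with TMM factors), beside 10.2% higher and 46.8% lower of all measured genes. Klf9 was 10.1-fold (8.88 to 11.5) and Klf15 4.83-fold (3.87 to 6.09) higher, both known as glucocorticoid-induced, while Klf8 was 81.1-fold (53.3 to 130) and Klf4 19.9-fold (13.3 to 30.9) lower, beside 39.7-fold lower for Klf5. At P5 over E18.5, 3 were higher and 3 lower, beside 7.68% and 21.4% of all measured genes, and in the adult over P5 3 and 6, beside 8.31% and 33.8%. In the KO, Klf15 was 2.81-fold higher (2.19 to 3.64) and Klf4 3.31-fold lower (2.61 to 4.23), beside 1.31-fold for Klf5.

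Myog itself was at 38.8, 52.5, 10.5 and 1.27 CPM in wild-type myonuclei from E14.5 to the adult and at 55.9 CPM in the KO. Of the 4 myogenic regulatory factors, Myog alone was at least 2-fold lower at P5 than at E18.5, 5.01-fold (4.14 to 6.11), beside 21.4% of all measured genes. Myf5, Myod1 and Myog were at least 2-fold lower in the adult than at E18.5, beside 46.8%. Myf6 was 7.78-fold higher at E18.5 than at E14.5 (5.46 to 11.4), whereas Myf5 was at 5.52 CPM, against 13.98 CPM at E14.5. Between these stages 1 of 4 was at least 2-fold higher and 1 lower (1 and 2 with TMM factors), beside 17.3% and 9.94% of all measured genes. In the KO Myf5 was 2.44-fold higher (1.83 to 3.30) and Myog had a ratio of 1.07 (0.954 to 1.19). There 1 of 4 was at least 2-fold higher and none lower, beside 6.2% and 5.52% of all measured genes.

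The study places 5 genes near sites bound by Myogenin, Klf5 and Tead4, and describes their course in these same libraries, so their direction with age is not counted as independent evidence here. All 5 were at least 2-fold lower at P5 than at E18.5, beside 21.4% of all measured genes. Tnnt2 was 19.3-fold lower (15.9 to 23.7), Chrng, the fetal subunit of the acetylcholine receptor, 15.8-fold (12.3 to 20.5), Mymx, the second fusion gene, 12.2-fold (5.36 to 34.3), Mymk 10.9-fold (8.08 to 15.1) and Col25a1, a collagen needed for motor innervation, 3.23-fold (3.08 to 3.4). In the adult, Mymk and Mymx had 0 UMIs in 4429 myonuclei, 271-fold and 39.5-fold lower than at E18.5 when 0 is set to 3 UMIs. In the KO, Col25a1 was at 2758 CPM, against 537.9 CPM at E18.5, 5.13-fold higher (4.99 to 5.26), and Mymx was 2.45-fold higher (1.85 to 3.26). Chrng, Tnnt2 and Mymk had ratios of 1.65 (1.53 to 1.79), 1.56 (1.47 to 1.65) and 1.55 (1.38 to 1.73). Thus 2 of 5 were at least 2-fold higher, beside 6.2% of all measured genes, while Myog, Klf5 and Tead4 stood at 1.07, 1.31 and 0.995.

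The genes whose myonuclear course over the 5 libraries was most like that of each member were found among 10672 genes, by the distance between log2(CPM + 1) profiles centred on their own mean, where 0 is the same course. Klf5 had as nearest genes Drp2 (0.373), a dystrophin-related protein, Cdkn1a (0.395), the cell cycle inhibitor p21, and Lrch1 (0.402). Drp2 was at 36.5, 34.9, 6.87 and 0.101 CPM from E14.5 to the adult and at 35.3 CPM in the KO. Tead2 had Vash2 (0.265), Fat1 (0.270), an atypical cadherin, and Igfbp3 (0.359) of the target list. Tead4 had Rpl36 (0.172), a ribosomal protein gene, Dipk2a (0.237) and Rps27 (0.283). Tead3 had Rps27l (0.108), Snrpg (0.149) and Mtss2 (0.158), and Tead1 had Zhx3 (0.0845), Trim56 (0.143) and Syngr2 (0.170). Among the members, Klf5 and Tead2 were closest to each other (0.770), Tead2 and Tead4 followed (1.07), then Klf5 and Tead4 (1.11), and Klf5 and Tead1 were the farthest pair (5.33 for Klf5 and Tead1, 2.20 for Tead1 and Tead3). The adult level of Tead2, 0.152 CPM from 3 UMIs, lies below the added 1 CPM, which shrinks its adult difference. The order of the 3 closest pairs depends on that added value and is not set. All 5 points of a profile are single libraries that differ in depth and composition.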

How the data were processed

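Nuclei were analysed from gene and peak matrices that the authors deposited for 5 libraries, as UMI counts per gene and counts per ATAC peak. Per the labels and the study's methods, Cell Ranger ARC 2.0.0 was run on mm10 (GRCm38) with intronic reads included and peaks called within each library, so peak sets differ between libraries. Peak and gene positions, deposited as start and end columns, were copied as other values. A nucleus was kept if it had more than 400 but fewer than 25000 UMIs, less than 10% of them mitochondrial, and fewer than 70000 ATAC counts. Myonuclei had at least 1% of UMIs from Ttn, and Pax7 and Myog positive nuclei had at least 1 UMI of that gene and less Ttn. Classes of other cells needed at least 3 of their markers. No doublet caller was run, and an alternative without nuclei that held at least 3 markers of another class stands in its place. Neither ambient RNA nor batch was corrected.

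UMIs were summed per library and class and given as CPM with exact Poisson 95% intervals. Ratios carry exact binomial intervals conditional on the summed count. These intervals cover counting error only, and with 1 library per group no p-value was computed. A gene was measured with at least 20 UMIs in 1 of the 2 libraries and called at 2-fold or more. A level of 0 was set to 3 UMIs per class and library. After the data were seen, a gene at 0 was left as not measured where that floor lay at or above the level of the other library. Shares of nuclei with a UMI were given after thinning to 1000 UMIs, with Clopper-Pearson intervals. A start-site peak lay within 1000 bases of the first or the last annotated start of a gene, and starts between them were not searched. Gene spans and transcripts came from GENCODE vM21 (GRCm38). Promoter sequence was taken from RefSeq (GRCm38.p6), where 2 of the 5 genes matched. Member genes and lists were chosen with earlier results of these data known. All 5 members are named throughout, as are the TEAD cofactors, myogenic factors and the study's 5 genes. For the other lists up to 2 genes with the highest and 2 with the lowest ratio among those past 2-fold are named, in the comparisons where values are given. Similar genes were the 3 nearest among those with a mean of at least 5 CPM, with a pseudocount of 1.

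Alternatives were TMM factors (edgeR 4.0.16) and DESeq2 1.42.0 size factors, other filters on nuclei, other gates and a start-site window of 200 bases. 4 alternatives for Klf5 in mesenchymal-marker nuclei and the split by Myog in nuclei of at least 5000 UMIs were added after the data were seen. Scripts ran in R 4.3.3 and in Python 3.11.15 with pandas 2.3.3, scipy 1.17.1 and numpy 2.4.6, and the ratio and call steps were tested on simulated counts.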

Additional observations from a re-analysis of the deposited data

How the results depend on the processing

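In myonuclei the counts of members past 2-fold stayed within 1.5-fold of 0, 3, 3, 4 and 0 under each alternative run, although TMM and DESeq2 scaling exchanged Tead3 for Tead1 in the adult over E18.5 and added Tead1 at P5 over E18.5. In the small classes they did not. Without nuclei that held markers of another class, Pax7 positive nuclei gave 1 member past 2-fold instead of 0 at E18.5 over E14.5, 1 instead of 0 at P5 over E18.5, 1 instead of 0 in the adult over P5 and 0 instead of 1 in the KO, and Myog positive nuclei gave 1 instead of 0 at E18.5 over E14.5 and 2 instead of 1 at P5 over E18.5. With myonuclei kept in the gate, Pax7 positive nuclei gave 2, 3, 4, 4 and 0 members over the 5 comparisons in the order E18.5 over E14.5, P5 over E18.5, adult over P5, adult over E18.5 and KO over E18.5, with Klf5 in the KO at -0.23 on the log2 scale, and Myog positive nuclei gave 4 at P5 over E18.5. That gate mixes fibers into the class by construction. For P5 over E18.5, no filter on nuclei gave 1 in Pax7 positive and 2 in Myog positive nuclei, no upper UMI limit 1 and 3, and at least 2 UMIs of Pax7 gave 1. In the adult over P5, at least 400 ATAC counts gave 1 and at least 2 UMIs of Pax7 gave 1. The cause was not tested. Under TMM factors 39 of 54 values moved by less than their counting interval and 15 by more, and no called value changed sign. No paired analysis was possible because each group has 1 library. With 17 Myog positive nuclei at P5 and 25 Pax7 positive nuclei in the adult, 3 UMIs of a gene correspond to 30.1 and 95.1 CPM, which limits what could be compared there.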

Other observations

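Outside the muscle lineage Tead2 was also lower at later stages. In nuclei with at least 3 mesenchymal markers it was at 91.1 CPM for E14.5 (84.3 to 98.3), 53.5 for E18.5 (49.4 to 57.9), 19.2 for P5 (16.1 to 22.6) and 7.69 for the adult (2.09 to 19.7, from 4 UMIs), so that the adult interval overlaps that of P5. In the adult over E18.5 it was 6.96-fold lower there (2.71 to 25.6), beside 168-fold lower in myonuclei (57.1 to 821). Tead1 was nearly even in the same nuclei, at 395.0, 364.1, 388.8 and 349.8 CPM. In myonuclei it was at 1095 CPM at P5, and the difference between both classes was not tested.

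Klf5 had 0 UMIs in nuclei with smooth muscle and pericyte markers in each of the 5 libraries. In macrophage-marker nuclei it was at 7.79 to 31.7 CPM (3 to 8 UMIs) outside the adult library, where it had 0 UMIs.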
